A study of Rattus norvegicus with 8 samples.

Results

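Heterotrimeric G proteins carry signals from receptors in the cell membrane to enzymes and ion channels inside the cell, and RGS proteins (regulators of G protein signalling) end those signals. The genes of these proteins were examined in rat frontal cortex by taking every probe set whose only gene symbol named a G protein alpha, beta or gamma subunit or began with Rgs and a number. This gave 68 probe sets for 43 genes, out of 20826 probe sets with 1 symbol for 14217 genes. They comprised 11 alpha, 5 beta and 9 gamma subunit genes and 18 RGS genes, the last including Rgs7bp, whose product anchors a class of RGS proteins. A probe set is a group of short oligonucleotides on the array that together report 1 transcript, and a gene may have several.

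The animals were male Sprague-Dawley rats, an outbred albino strain, of about 200 g at the start. Their treatment lasted 21 days and was olanzapine, injected intraperitoneally at 2 mg/kg/day, or saline. Of the 20 rats assigned at random to each group, 4 per group gave frontal cortex RNA for 1 array each, named here by group and by the number in its label (saline 14, 15, 17 and 19, and olanzapine 9, 14, 18 and 19). Olanzapine is an antipsychotic that blocks serotonin, dopamine, muscarinic, histamine and adrenergic receptors, nearly all of which act through G proteins. The age of the rats, the route of the saline, the time between the last injection and dissection and the exact limits of the dissection are unknown here.

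A heterotrimeric G protein has an alpha subunit that binds guanine nucleotides and a tightly joined beta-gamma pair. An activated receptor makes the alpha subunit exchange GDP for GTP, after which alpha and beta-gamma each act on effectors such as adenylyl cyclase, phospholipase C-beta and potassium channels. RGS proteins speed up the hydrolysis of GTP by alpha subunits of the Gi/o and Gq classes. In the cortex, Gi/o-coupled receptors include the D2-type dopamine receptors, and Gq-coupled receptors include the serotonin 2A receptor, both of them targets of olanzapine.

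The comparison asks which of these transcripts differed in level between the olanzapine and the saline rats. Probe sets whose mean over the 8 arrays was in the lowest 40% were left out of the test as too dim, which is called the filter here. None of the 52 member probe sets tested, standing for 35 genes, passed an adjusted p of 0.05. On the deposited scale, the smallest p-values among the members were those of lower levels in olanzapine of Gnb1, the gene of the G protein subunit beta 1, at 0.77-fold and 0.81-fold of saline in 2 of its 3 probe sets, and of Gnaz, the gene of the Gi-class subunit alpha z, at 0.82-fold in 1 of 2. Gng8, a gamma subunit gene, was higher at 1.26-fold, and Gng7, another, at 1.38-fold (limma adjusted p = 0.605). Gng7 was dim, at 49.5 to 169, and its groups overlapped after quantile normalization, cyclic loess and median centring. Smaller p-values than that of Gng7 were found for Gng11 and Gnas, in 1 probe set each. Gng11 was at 1.45-fold with overlapping groups (limma adjusted p = 0.488), and Gnas at 0.82-fold without overlap (limma adjusted p = 0.518). Gnaz and Gng8 separated the groups under every scaling run, whereas the groups overlapped in both Gnb1 probe sets after quantile normalization, where their log2 differences shrank from -0.38 and -0.30 to -0.17 and -0.083. These folds come from differences on the log2(intensity + 63.5) scale, which understates changes of dim probe sets. The tested probe sets of RGS genes differed by -0.25 to 0.32 on the log2 scale. In tissue RNA of this kind, fewer cells of a type and less RNA per cell cannot be told apart.

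Across all probe sets tested, 0 of 18625 (0%) passed an adjusted p of 0.05 in limma, and 1549 had an unadjusted p under 0.05. Of the members, 0 of 52 passed and 6 had an unadjusted p under 0.05. The smallest adjusted p among the members was 0.317, which was also the smallest on the array. The 4 olanzapine values lay entirely above the 4 saline values in 2 member probe sets of 52, beside 2.4% of all tested. They lay entirely below in 6 of 52 (11.5%), beside 2.07% of all tested. These 6 stand for 5 genes, since 2 of them report Gnb1. The median log2 difference, olanzapine minus saline, was 0.032 over the members and 0.027 over all tested probe sets, and the median absolute difference was 0.17 over the members and 0.13 over all.

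The scale of the deposited values bears on these counts. Every array had been brought to 1 trimmed mean. Among the brightest 5% of tested probe sets the median difference was -0.15, and it was 0.00036 once quantile normalization had given every array the same distribution of values. In that brightest 5%, 18.6% of probe sets lay entirely below in olanzapine. It holds 4 members, the 2 bright probe sets of Gnb1 and 1 each of Rgs4 and Gnb5, and 3 of the 4 lay entirely below. After quantile normalization 2 members lay entirely below, Gnaz and Gnas, beside 1.76% of all tested. In the same setting 1 member, Gng8, lay entirely above, beside 1.97%. Median intensities were 159.1 to 191.3 per array. Saline 19 stood nearer to the olanzapine arrays in its bright probe sets, with a 98th percentile of 5567, where olanzapine arrays had 5451 to 5692 and the remaining saline arrays 6127 to 6204. Markers of cortical neurons (Slc17a7, Camk2a and Neurod6) passed the filter, whereas Tbr1 did not.

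**Figure D1:**
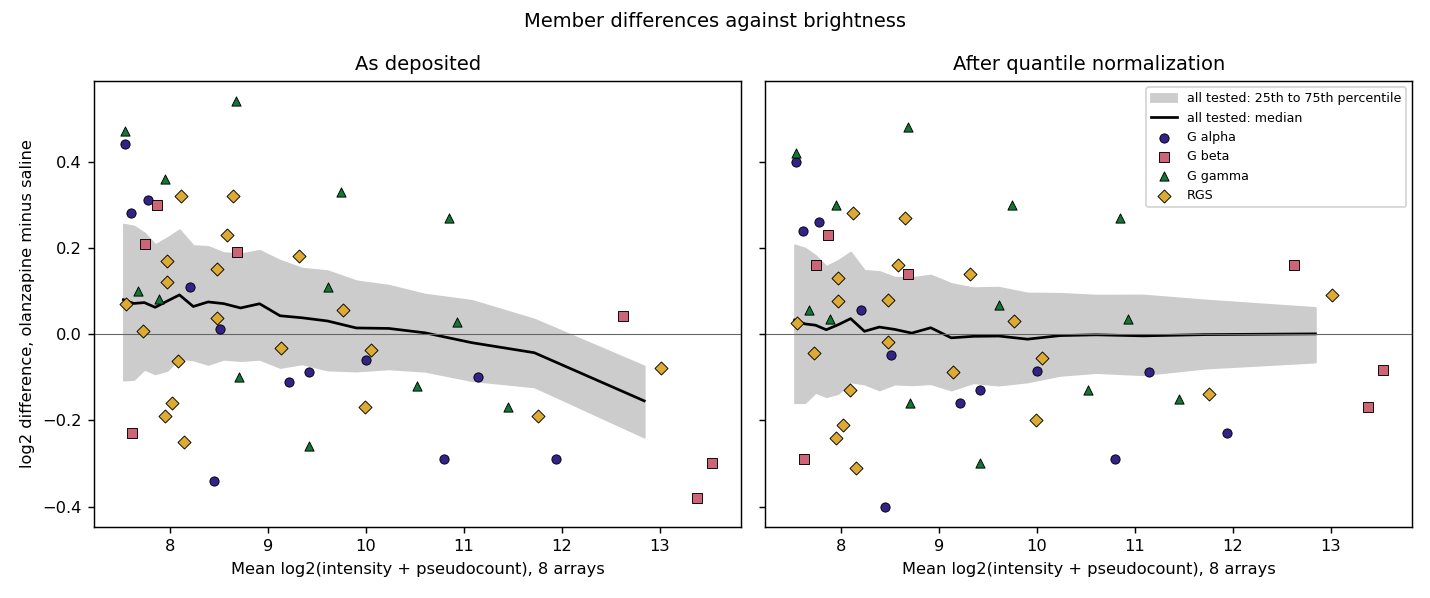
Log2 difference (olanzapine minus saline) against mean log2(intensity + 63.5) over the 8 arrays for each tested member probe set, marked by family, as deposited (left) and after quantile normalization (right). The black line and grey band give the median and the 25th to 75th percentile of all tested probe sets in 20 bins of brightness; the line falls below 0 for bright probe sets on the left and stays near 0 on the right, and the 2 bright Gnb1 probe sets lie below it in both.

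The sequence around the annotated start is shown for some of the separated members. RefSeq's table for the GRCr8 assembly held such windows, from 250 bases before to 50 after a start, for 38 of the 43 genes, but not for Gnaz or Gng8. Shown are 3 genes whose groups did not overlap on the deposited scale, Gnb1 and Rgs4 from the lower and Gng7 from the higher members. After quantile normalization the groups overlapped in all 3. The windows are Gnb1 at chr5:171378113-171378412 on the plus strand, Rgs4 at chr13:84475835-84476134 on the minus strand and Gng7 at chr7:9365139-9365438 on the plus strand. Capitals mark matches, on either strand, to the letters TATAAA of the TATA box, the letters CCAAT of the box of that name, the letters GGGCGG of the GC box and the letters TGACGTCA of the cyclic AMP response element, none of which overlap here.
Gnb1: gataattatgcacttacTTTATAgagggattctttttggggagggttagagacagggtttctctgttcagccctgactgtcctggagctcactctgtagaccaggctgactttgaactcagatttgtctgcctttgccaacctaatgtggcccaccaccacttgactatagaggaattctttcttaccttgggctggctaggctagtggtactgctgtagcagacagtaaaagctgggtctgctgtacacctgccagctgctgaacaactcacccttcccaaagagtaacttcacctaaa
Rgs4: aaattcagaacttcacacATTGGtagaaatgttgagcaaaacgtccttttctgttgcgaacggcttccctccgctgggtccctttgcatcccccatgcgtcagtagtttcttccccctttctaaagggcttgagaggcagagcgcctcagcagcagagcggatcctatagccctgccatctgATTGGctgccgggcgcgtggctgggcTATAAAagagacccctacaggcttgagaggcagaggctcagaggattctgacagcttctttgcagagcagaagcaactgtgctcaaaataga
Gng7: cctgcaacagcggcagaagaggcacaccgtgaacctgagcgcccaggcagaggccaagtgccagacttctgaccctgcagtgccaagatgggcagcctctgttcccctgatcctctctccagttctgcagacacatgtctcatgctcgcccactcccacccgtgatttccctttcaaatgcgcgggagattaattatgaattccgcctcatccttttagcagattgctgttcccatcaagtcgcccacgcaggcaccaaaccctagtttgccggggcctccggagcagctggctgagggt

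Rgs4 holds TATAAA beginning 42 bases before its start and 2 matches to CCAAT, 68 and 232 bases before it, on the other strand. Gnb1 holds 1 match to TATAAA, on the other strand and 233 bases before the start. Gng7 holds none of the 4. Among the 40 windows of the 38 genes (Gnas has 3), TATAAA was in 12.5%, beside 14.2% of all 33469 windows. CCAAT was in 27.5% beside 37.5%, GGGCGG in 57.5% beside 33.1%, and TGACGTCA in 2.5%, which is Gnao1 alone, beside 1.83%. A match is a run of letters in an annotated window, and these arrays do not measure binding or where transcription started.

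G proteins are classed by their alpha subunit, which has a large part in deciding which receptors and effectors they serve. Of the 12 tested alpha probe sets, for 9 genes, 5 were higher and 7 lower in olanzapine, with a median of -0.075. In the Gi/o class, whose members inhibit adenylyl cyclase, Gnaz stood apart. Its probe set 1368185_at read 4236, 4436, 4513 and 4016 in saline 14, 15, 17 and 19, and 3257, 3375, 3619 and 3760 in olanzapine 9, 14, 18 and 19. Every olanzapine rat was thus below every saline rat, with a saline mean of 4300 ± 223 and an olanzapine mean of 3503 ± 228 (SD, n = 4 each). The log2 difference was -0.29 (SE 0.08, limma adjusted p = 0.373), and -0.23 after quantile normalization. The second probe set of Gnaz, 1387095_at, was dim at 66.1 to 188 in saline and 92.5 to 240 in olanzapine, and differed by 0.28 (SE 0.26). The 2 probe sets therefore disagreed in sign, and only the brighter one separated the groups.

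Gnao1 encodes alpha o, the most abundant Gi/o subunit of neurons. It read 605, 593, 763 and 629 in saline and 536, 616, 649 and 613 in olanzapine (in the order of animals given for Gnaz, as in all values below). The groups overlapped, with a difference of -0.089 (SE 0.13, limma adjusted p = 0.893), which was -0.014 without saline 17. Gnai2, another Gi gene, read 255.7, 344, 215 and 419 in saline and 271, 196, 465 and 329 in olanzapine. Its difference of 0.012 (SE 0.22) was near 0, and the spread within each group was wide. Gnai1 differed by 0.31 (SE 0.22). A further pair of probe sets names both Gnai1 and Gnai3 and was not used, so Gnai3 has no value here.

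Gnas encodes alpha s, which stimulates adenylyl cyclase, and the gene also gives rise to longer proteins from other start sites. Its probe set 1387906_a_at read 1999, 2361, 1659 and 1692 in saline and 1547, 1480, 1585 and 1571 in olanzapine. All olanzapine values were lower, but saline 17 and saline 19 came close to them, and the SD was 327 in saline against 46.6 in olanzapine. The log2 difference was -0.29 (SE 0.11, limma adjusted p = 0.518), unchanged at -0.29 after quantile normalization and -0.19 without saline 15. A second tested probe set of Gnas, 1369897_s_at, read 1822 to 3028 in saline and 2002 to 2266 in olanzapine. There the groups overlapped and the difference was -0.10 (SE 0.13). The third, 1390263_at, was below the filter, at 65.3 to 160. Gnal, the gene of alpha olf, which takes the place of alpha s in the striatum and the olfactory system, read 391, 588, 713 and 571 in saline and 573, 560, 482 and 438 in olanzapine at 1384229_at. This difference was -0.11 (SE 0.16), and that of its other probe set was 0.11 (SE 0.21), so the gene showed no common direction.

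In the Gq class, which activates phospholipase C-beta, only Gna11 and Gna14 had a tested probe set. Gna14 read 337, 450, 251 and 305 in saline and 169, 360, 220 and 271 in olanzapine. Its difference was -0.34 (SE 0.20, limma adjusted p = 0.721), with olanzapine 14 above 3 of the saline rats. It was -0.20 without olanzapine 9 and -0.21 without saline 15. Gna11 differed by 0.44 (SE 0.29), with saline values from 35.2 to 179 and olanzapine values from 95.5 to 216. Gnaq, the main Gq gene of the brain, was below the filter at 22.2, 29.6, 87.4 and 38.5 in saline and 17.2, 37, 26.8 and 105 in olanzapine. These values overlap fully, and at this brightness the array does not show whether Gnaq differed. Gna12, of the remaining alpha class, differed by -0.061 (SE 0.14) in its tested probe set.

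Beta subunits form the propeller-shaped part of the beta-gamma pair. Of 7 tested beta probe sets, for 4 genes, 4 were higher and 3 lower, with a median of 0.041 as deposited and 0.14 after quantile normalization. Gnb1 had the smallest p of all members. Its probe set 1375705_at read 13412, 12418, 11393 and 11189 in saline and 9678, 8505, 9076 and 9887 in olanzapine. Its probe set 1367731_at read 13827, 13771, 12649 and 12202 in saline and 11095, 9245, 10937 and 11236 in olanzapine. In both, the highest olanzapine rat was below the lowest saline rat, which was saline 19.

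For 1375705_at the saline mean was 12103 ± 1025 and the olanzapine mean 9287 ± 624 (SD, n = 4 each), a log2 difference of -0.38 (SE 0.08, limma adjusted p = 0.317). The means of 1367731_at were 13112 ± 814 and 10628 ± 930, a difference of -0.30 (SE 0.08, limma adjusted p = 0.333). After quantile normalization the differences were -0.17 and -0.083, and the groups overlapped in both. Without saline 19, 1375705_at passed the adjusted test at -0.41 (SE 0.08, limma adjusted p = 0.0328), as 1 of 52 members. In that fit 96 of 18625 probe sets (0.515%) passed as lower in olanzapine, and 107 passed in all. The deviations of these 2 probe sets from their group means went together over the 8 arrays (Pearson r 0.875, Spearman rho 0.952), which is a description of 2 readings of 1 transcript on the same arrays.

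The third Gnb1 probe set, 1367732_at, was dim. It read 202, 42.7, 204 and 197 in saline and 141, 247, 201 and 202 in olanzapine, and its difference of 0.30 (SE 0.28) rested on the low value of saline 15, without which it was -0.034. Its deviations did not go with those of the bright pair (r -0.486 with 1367731_at and -0.315 with 1375705_at). Astrocyte markers, 6 of 6 on the array and with single values down to 130, were lower in olanzapine in 6 of 6 genes as deposited, with summed intensities of 36747 to 42441 in saline and 33638 to 37570 in olanzapine, lowest among saline rats in saline 19. After quantile normalization 5 of the 6 were lower, and their median log2 difference went from -0.19 to -0.091. Oligodendrocyte markers went the other way, higher in olanzapine in 5 of 5 genes as deposited and in 4 after quantile normalization. No astrocyte marker was at 0, and the part of these cell types in the Gnb1 values was not tested.

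Gnb5 encodes an unusual beta subunit that pairs with the R7 class of RGS proteins rather than with gamma subunits. It read 5938, 6370, 6387 and 5915 in saline and 6247, 6717, 5855 and 6518 in olanzapine. The groups overlapped, with a difference of 0.041 (SE 0.08), which was 0.16 after quantile normalization. Gnb5 is one of the bright members and was not lower in olanzapine. Among the brightest 5% of tested probe sets, 105 of 932 were higher and 827 lower. Gnb4 differed by 0.19 (SE 0.20). The 2 probe sets of Gnb2 differed by 0.21 (SE 0.26) and -0.23 (SE 0.23), in opposite directions. Gnb3, known from cone photoreceptors, was below the filter in both of its probe sets.

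**Figure D2:**
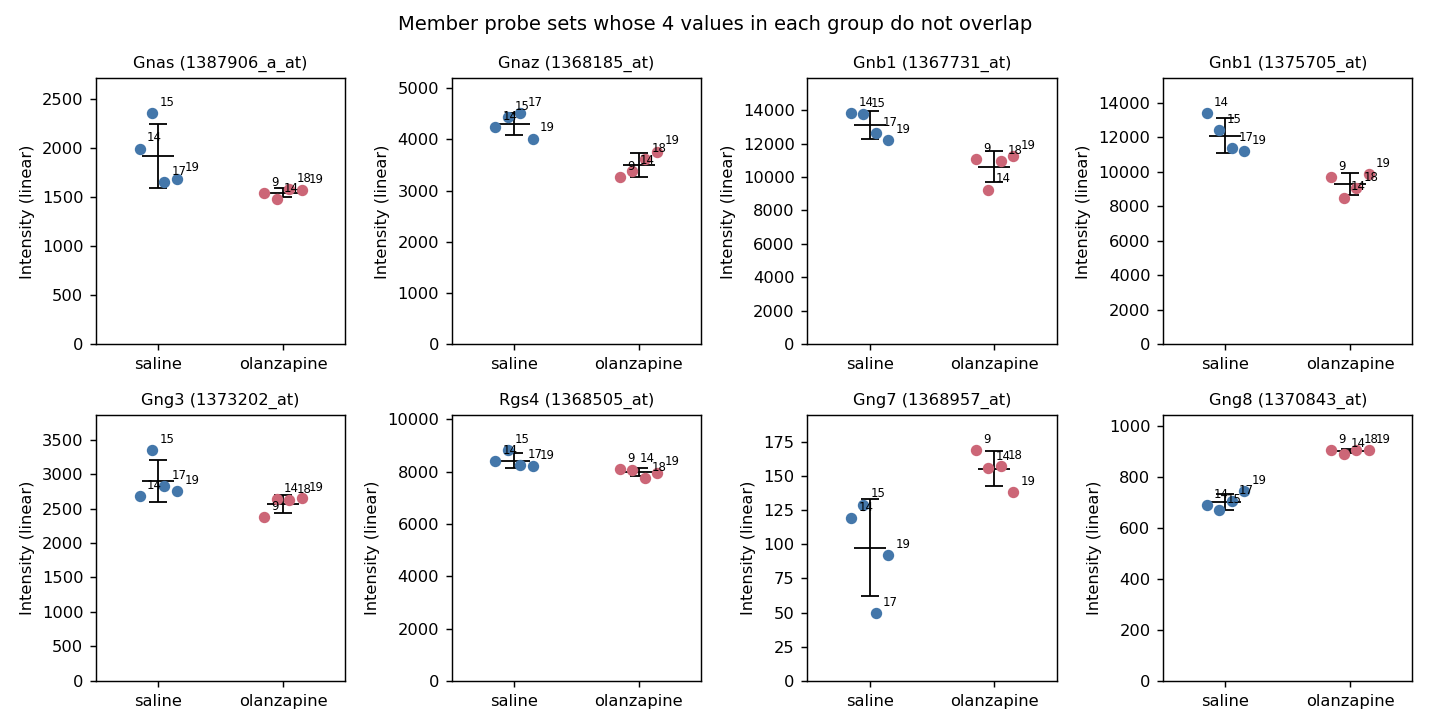
Deposited linear intensity on each array for the 8 member probe sets whose groups do not overlap, with the number in the array's label beside each point. The horizontal bar and whiskers are the mean and SD of 4 rats. The Gnas, Gnaz, Gnb1, Gng3 and Rgs4 probe sets are lower in every olanzapine rat and Gng7 and Gng8 are higher, and the gap is narrow for Gng3 and Rgs4.

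Gamma subunits carry the lipid anchor that holds the beta-gamma pair at the membrane, and they differ in the cell types that make them. Of the 13 tested gamma probe sets, for 9 genes, 9 were higher and 4 lower, with a median of 0.10, or 0.055 after quantile normalization, beside 0.027 and 0.0046 over all tested. The tightest separation among the members was that of Gng8. It read 691, 672, 707 and 747 in saline and 908, 891, 906 and 908 in olanzapine. The 4 olanzapine rats lay close together, and saline 19 was the highest saline rat. The saline mean was 704 ± 31.8 and the olanzapine mean 903 ± 8.29 (SD, n = 4 each), a log2 difference of 0.33 (SE 0.11, limma adjusted p = 0.415), and 0.30 after quantile normalization. With any 1 array left out it stayed between 0.31 and 0.36.

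Gng7 is known for pairing with alpha olf and beta 2 in striatal neurons. It read 119, 129, 49.5 and 92.1 in saline and 169, 156, 157 and 138 in olanzapine. All olanzapine values were higher, by a log2 difference of 0.47 (SE 0.22, limma adjusted p = 0.605). Saline 17 was far below the rest, and without it the difference was 0.31. Gng7 overlapped between groups after quantile normalization, where it differed by 0.42. Markers of striatal medium spiny neurons had 7 of 8 genes on the array, 5 of them above the filter and none at 0. Their summed intensity was 4399 to 4976 in saline and 4411 to 4864 in olanzapine, so these sums overlapped, while the dopamine D2 receptor gene Drd2 and the adenosine receptor gene Adora2a were below the filter.

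Gng11 is a gamma gene found in blood vessels and other non-neuronal cells. Its probe set 1367902_at read 213, 198, 332 and 399 in saline and 533, 419, 345 and 441 in olanzapine. Only olanzapine 18 fell below saline 19, and the log2 difference of 0.54 (SE 0.20, limma adjusted p = 0.488) was the widest of any tested member. Without saline 19 it was 0.69. The second probe set, 1398530_at, read 129 to 204 in saline and 152 to 216 in olanzapine and differed by 0.081 (SE 0.19).

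Markers of meninges and vessels were read beside Gng11. The 7 meningeal markers on the array summed to 2251 to 2882 in saline and 2992 to 8135 in olanzapine. The highest sum was that of olanzapine 9, which also had the highest Gng11 value. Otherwise the orders differed, since olanzapine 19, with the lowest olanzapine sum, read 441 for Gng11, above olanzapine 14 and 18. Pericyte and smooth muscle markers, 8 of 8 on the array and 4 above the filter, summed to 1172 to 1853 in saline and 1432 to 2242 in olanzapine. Their highest sum was again in olanzapine 9, and the next, 1853, was in saline 15, which had the lowest Gng11 value, 198. Endothelial markers, 6 of 6, summed to 4542 to 5616 in saline and 4613 to 5129 in olanzapine. Only the meningeal sums did not overlap between groups. No marker was at 0 in these lists. The part of such cells in the Gng11 values was not tested.

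Gng5, which is made in many cell types, was higher in both tested probe sets. The brighter one, 1387342_at, read 1446, 1556, 1496 and 2023 in saline and 2296, 2200, 1727 and 1693 in olanzapine, a log2 difference of 0.27 (SE 0.13, limma adjusted p = 0.62). Here saline 19 lay among the olanzapine rats, and without it the groups did not overlap and the difference was 0.37. The dimmer one differed by 0.36 (SE 0.19), and by 0.44 without saline 19. Without that array 5 members lay entirely above in olanzapine, beside 6.39% of all tested.

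Gng3, a gamma gene of neurons, read 2683, 3352, 2824 and 2756 in saline and 2374, 2632, 2620 and 2653 in olanzapine. All olanzapine values were lower, yet olanzapine 19 nearly reached saline 14. The log2 difference was -0.17 (SE 0.10, limma adjusted p = 0.701), and -0.10 without saline 15, the highest array. Gng2, another neuronal gamma gene, read 847, 468, 701 and 793 in saline and 680, 537, 539 and 515 in olanzapine at 1386660_at. There saline 15 was the lowest array of all, and the difference of -0.26 (SE 0.16, limma adjusted p = 0.742) was -0.42 without it and -0.16 without saline 14. Its other probe set differed by -0.10 (SE 0.19). Gng13, at -0.12 (SE 0.14), and Gng10, at 0.027 (SE 0.11), and both probe sets of Gng12, at 0.10 (SE 0.20) and 0.11 (SE 0.13), overlapped between groups.

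**Figure D3:**
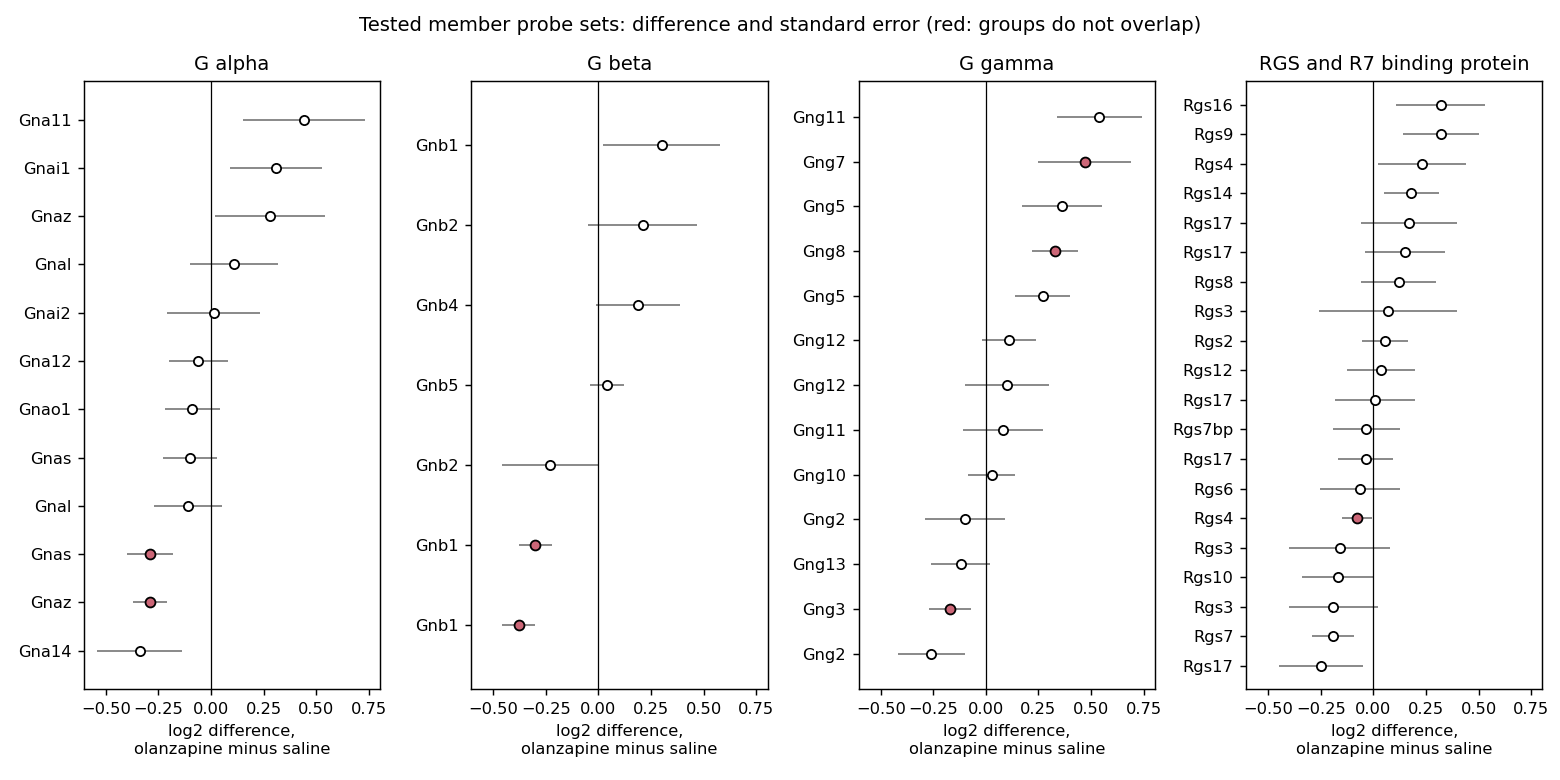
Log2 difference, olanzapine minus saline, with its standard error from limma, for each of the 52 tested member probe sets in 4 panels by family; red points mark probe sets whose groups do not overlap. Differences run from -0.38 for Gnb1 to 0.54 for Gng11, and a gene with several probe sets appears once for each.

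RGS proteins are grouped by the sequence of their shared domain. Of 20 tested RGS probe sets, for 13 genes, 11 were higher and 9 lower, with a median of 0.022, and 0 had an unadjusted p under 0.05. The R4 class holds small proteins with little beside the RGS domain. Rgs4, which is made by cortical pyramidal neurons and has been studied in schizophrenia, read 8408, 8839, 8252 and 8207 in saline and 8107, 8085, 7761 and 7963 in olanzapine at 1368505_at. All olanzapine values were lower, but olanzapine 9 nearly reached saline 19. The means of 8426 ± 288 and 7979 ± 158 (SD, n = 4 each) gave a log2 difference of -0.078 (SE 0.07, limma adjusted p = 0.824). The sign turned to 0.09 after quantile normalization and to 0.068 after cyclic loess. The dimmer probe set of Rgs4 read 210 to 433 in saline and 284 to 528 in olanzapine and differed by 0.23 (SE 0.21).

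Rgs2, an R4 member that acts on Gq and is induced by neuronal activity, read 898, 766, 766 and 756 in saline and 894, 850, 737 and 841 in olanzapine. The groups overlapped, with a difference of 0.056 (SE 0.11). A second Rgs2 probe set, 1368144_at, lay below the filter at 67.3, 51.2, 92.2 and 12.5 in saline and 9, 17, 6.25 and 8.65 in olanzapine. Saline 19 lay among the olanzapine rats, and the difference in a fit without the filter was -0.65 (SE 0.20), opposite in sign to the brighter probe set. Rgs5, a marker of pericytes, was below the filter at 195, 194, 17.5 and 110 in saline and 176, 51.9, 117 and 42.1 in olanzapine, with a spread too wide to show a direction. Rgs16 differed by 0.32 (SE 0.21) and Rgs8 by 0.12 (SE 0.18). The 3 probe sets of Rgs3 differed by -0.19 to 0.07, in both directions.

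R7 proteins bind Gnb5 and, through Rgs7bp, the plasma membrane. Rgs7 read 4231, 3873, 3169 and 3416 in saline and 3334, 3493, 3024 and 2929 in olanzapine. The values overlapped, with a difference of -0.19 (SE 0.10, limma adjusted p = 0.676), which was -0.12 without saline 14. Rgs9, whose long form is enriched in the striatum and modulates D2 receptor signalling, read 207, 187, 153 and 196 in saline and 256.3, 199, 222 and 326 in olanzapine at 1368500_a_at. Only saline 14 exceeded an olanzapine rat, and the difference of 0.32 (SE 0.18, limma adjusted p = 0.691) was 0.21 without olanzapine 19, the highest array. The other Rgs9 probe set was below the filter, at -0.056 (SE 0.25) in a fit without it. Rgs6 differed by -0.063 (SE 0.19) and Rgs7bp by -0.033 (SE 0.16). The R7 complex thus had Rgs7 lower, Rgs9 higher and Gnb5 near 0, none of them past the test.

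Rgs10, the R12 member known from microglia as well as neurons, read 771, 1417, 900 and 1079 in saline and 1005, 1066, 808 and 734 in olanzapine. Its difference of -0.17 (SE 0.17) was -0.023 without saline 15, the highest array, and -0.30 without saline 14. Microglial markers, 7 of 7 on the array and 4 above the filter, summed to 1901 to 2327 in saline and 1768 to 2411 in olanzapine. Rgs14 differed by 0.18 (SE 0.13) and Rgs12 by 0.037 (SE 0.16). In the RZ class, which acts on alpha z among others, the 5 tested probe sets of Rgs17 differed by -0.25 to 0.17 with 3 higher and 2 lower.

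Of the 12 genes with more than 1 tested probe set, 5 had all probe sets in 1 direction (Gnas, Gng11, Gng12, Gng2 and Gng5) and 7 did not (Gnal, Gnaz, Gnb1, Gnb2, Rgs17, Rgs3 and Rgs4). In Gnaz, Gnb1 and Rgs4 the probe set that separated the groups was the brighter one and a dim one had the opposite sign. The remaining 23 tested genes rest on 1 probe set each. The 16 member probe sets below the filter include all those of 8 genes: Gna15, Gnaq, Gnb3, Rgs1, Rgs5, Rgs18, Rgs19 and Rgs22. Their group means ran from 5.41 to 146, and in a fit without a filter all 16 differed by -0.65 to 0.70, with none separating the groups.

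**Figure D4:**
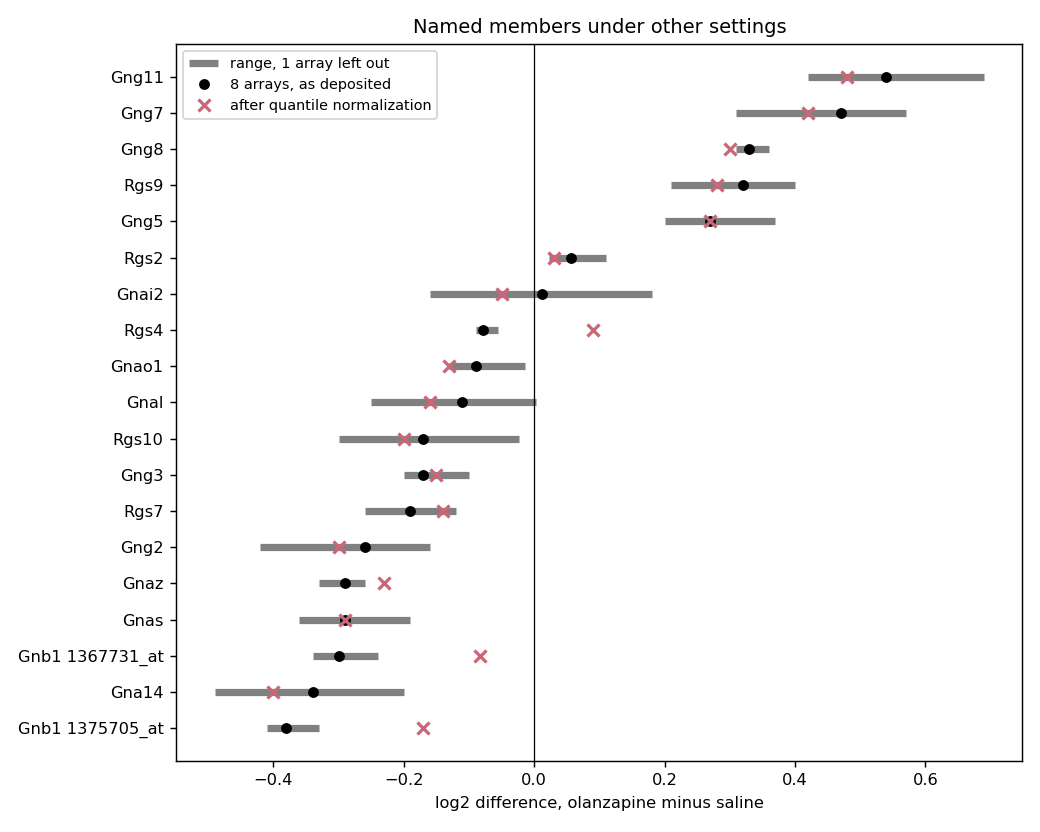
Log2 difference of the 19 named probe sets of 18 genes: black points for all 8 arrays as deposited, grey bars for the range with 1 array left out, crosses after quantile normalization. The crosses of the 2 Gnb1 probe sets, Rgs4 and Gnaz lie outside the grey bars to the right and that of Gng8 to the left, and the bars of Gnai2 and Gnal cross 0.

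The partners of these proteins were read from a list of 39 symbols of adenylyl cyclases, phospholipases C-beta, receptor kinases, arrestins, G protein-gated potassium channels and exchange factors. Of these 33 were on the array and 24 had a tested probe set. The symbols not found include Adrbk1 and Adrbk2, older names of Grk2 and Grk3, which were on the array. Of the 30 tested probe sets from the list, 15 were higher and 15 lower, with a median of 0.0038, and 0 passed. Only Plcb3, a phospholipase C-beta gene, separated the groups. It read 405, 421, 412 and 360 in saline and 546, 461, 496 and 498 in olanzapine, a log2 difference of 0.28 (SE 0.13, limma adjusted p = 0.572). Adcy9, an adenylyl cyclase gene, differed by 0.33 (SE 0.18) with overlapping values. Kcnj6, a potassium channel gene opened by beta-gamma, differed by 0.28 (SE 0.18) in the first of its 3 tested probe sets and by 0.25 and 0.015 in the others.

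The arrays on which Gnb1 and Rgs4 deviated from their group means were also compared with those of every tested gene. Over the 8 arrays the closest to Gnb1 (1367731_at) were Rps29 (Pearson r 0.971, Spearman rho 0.857), Slc5a12 (0.956 and 0.690) and RT1-S3 (0.953 and 0.905). The closest to Rgs4 (1368505_at) were Irf9 (0.985 and 1.000), Rnf113a2 (0.981 and 0.952) and Cyb5b (0.968 and 0.976). These are the highest correlations over 8 points among the 13104 tested probe sets with 1 symbol, leaving out those of the gene itself. They share each array's scaling, and none is another member.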

How the data were processed

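The authors deposited 1 linear intensity per probe set and array. What software, background correction and summarization made it was not given in the sources used here. These intensities had been scaled: the mean without the lowest and highest 2% was 500.15 to 500.17 on every array. Probe sets were named from GEO's platform annotation of 2016, and 57 control probe sets were left out. Values were tested as log2(intensity + 63.5), the added 63.5 being the 25th percentile of all non-control values. Probe sets whose mean over the 8 arrays was in the lowest 40% were not tested. Groups were compared with limma 3.58.1 in R 4.3.3 (lmFit, and eBayes with a mean-variance trend), with Benjamini-Hochberg adjustment over all 18625 probe sets, after the script had been tested on simulated data. The p-values measure the spread between 4 arrays a group, and that number limits the precision. Values per array are given for genes with a non-overlapping probe set, the 12 genes of smallest p and 15 genes chosen for their roles. The members, these 15 genes and all gene lists were chosen with earlier results of these data known. Alternatives were 3 other scalings, pseudocounts of 16 and 256, no filter and a filter at the 60th percentile, array weights, no trend, the label number as a block, 1 probe set per gene, and each array left out. No batch is given in the labels, and none could be examined.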

Additional observations from a re-analysis of the deposited data

Results flagged for a closer look

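In 5 of the 38 groups of 4 values checked, 1 animal lay far from the other 3. Chance alone gives about 1 in 20 groups where these are independent and not picked by their values. These groups share the same 8 arrays, and many of their probe sets were picked by non-overlap or p. The count therefore cannot show an excess. Gnb1 (1367731_at) was 9245 in olanzapine 14 against 10937 to 11236 in the other olanzapine rats. In olanzapine 9, Gng2 was 680 against 515 to 539, and Gng3 was 2374 against 2620 to 2653. Gng8 was 891 in olanzapine 14 against 906 to 908, in a group whose whole range was narrow. Rgs2 was 898 in saline 14 against 756 to 766.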

How the results depend on the processing

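With 1 array left out, 0 to 1 members passed the adjusted test, the 1 being Gnb1 (1375705_at) at -0.41 without saline 19, and 2 to 5 lay entirely above in olanzapine, the 5 also without saline 19, beside 6.39% of all tested. That count was 2 as reported, beside 2.4% of all tested, and 1 after quantile normalization, beside 1.97%. It was 1 after cyclic loess, 1 after median centring and 1 with the filter at the 60th percentile. The count lying entirely below was 6 as reported, beside 2.07% of all tested, and 2 after quantile normalization, beside 1.76%. It was 3 after cyclic loess, 3 after median centring and 6 to 7 with 1 array left out. Shares of all tested lying entirely below in these last settings are not given here. Leaving an array out makes non-overlap easier for any probe set. Of the 6, 3 were in the brightest 5% of tested probe sets, where 18.6% lay entirely below. That split was chosen after seeing the data. Gng8 and Gnaz kept apart under each scaling run. The median over members was -0.049 with the filter at the 60th percentile, which tests fewer probe sets, -0.02 after median centring, and -0.0054 to 0.037 with 1 array left out, so its sign is not stable. Gnai2 turned to -0.049, -0.051 and -0.04 under the 3 scalings, to -0.30 with the replicate block, and ran from -0.16 to 0.18 with 1 array left out. Gnal turned to 0.058 with the block and ran from -0.25 to 0.0034, and Rgs4 turned to 0.09 and 0.068 under quantile normalization and cyclic loess. The cause of these turns was not tested. Of 357 combinations of a named probe set and an alternative, 344 kept sign and call. That count includes alternatives in which the sign could not turn. Changing or dropping the filter, dropping the trend and keeping 1 probe set per gene leave each log2 difference as it was. The label numbers 14 and 19 occur in both groups, and the labels do not say whether they pair animals. Correlations of deviations were 0.075 for number 14 and 0.109 for number 19. Arrays of different numbers gave -0.128 to 0.132, so these correlations cannot decide the question. With that number as a block, each difference rests only on saline 14 and 19 and olanzapine 14 and 19. This leaves little to estimate the spread, so the block is a weak check. In that fit 0 members passed, as reported, the member median was 0.015 and 6 probe sets passed in all. Counts of non-overlap have no value under the block.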
